A study of Arabidopsis thaliana with 12 samples.

Results

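Messenger RNA of Arabidopsis thaliana seedlings with the ref6-1 mutation, in the gene of the histone demethylase REF6, was set against that of wild type (WT). The comparison takes in every locus counted, in 6 of the 12 libraries of the study: 3 of ref6-1 and 3 of WT. Of 29420 loci in the table, 22076 passed a filter on low counts and were tested. Plants of both groups were 14 days old and grew on half-strength MS medium at 22 degrees with 16 hours of light and 8 hours of dark. The label WT names no allele, and the label ref6-1 names no other. The other 6 libraries, 3 of brm-1 and 3 of brm-1 ref6-1, lack BRM, the ATPase of a chromatin-remodelling complex, and are used at the end, where REF6 was lost in a second background. One protocol label mentions pooling of RNA before library construction. If so, the p-values measure a spread that may be technical.

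Polycomb proteins place methyl groups on lysine 27 of histone H3, and genes that carry this mark are held at a low level. REF6 takes the methyl groups off again. Its zinc fingers bind a short DNA motif, CTCTG followed by a pyrimidine, T and a pyrimidine, and plants without it are known for late flowering and raised FLC, a repressor of flowering. The close relative ELF6 is also a demethylase.

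The libraries held 11069310 to 11860892 counts in WT and 10762616 to 11104780 in ref6-1, and no locus exceeded 6707 counts in any library of the study. For REF6 itself (AT3G48430, chromosome 3, 17935256 to 17940792 in TAIR10.1), WT libraries held 1116, 993 and 908 counts, and ref6-1 libraries held 874, 892 and 888. All ref6-1 values lay below all WT values, and the log2 difference of -0.15 ± 0.05 missed the threshold (SE, n = 3 per group, edgeR adjusted p = 0.06), passing it only without WT replicate 3 (0.00606). The site of the lesion is not given in the sources used here, so these counts do not check the label. ELF6 differed by -0.01 ± 0.03. On the first principal component (55.9% of the variance) the 3 WT values ran from -33.7 to -24.4, and ref6-1 libraries at 39.4, 32.4 and 16.0. Replicate 3 of ref6-1 was nearest to WT. The 7 shoot markers were not called, with sums of 966 to 1021 CPM (counts scaled to a common library total) in WT and 974 to 1011 in ref6-1. Of 15 root markers, EXPA7 and PHO1 fell, calls that both ended without ref6-1 replicate 2, and the sums were 775.0 to 806 CPM in WT and 723 to 732 in ref6-1. The call of EXPA7 also ended without WT replicate 1 or 3 or ref6-1 replicate 3 (edgeR adjusted p = 0.155, 0.0828 and 0.108) and with only the groups compared (0.0813). The 8 seed markers summed to 2.13 CPM or less in every library. The 7 flower and pollen markers summed to 12.75 to 18.22 CPM in WT and 17.62 to 18.53 CPM in ref6-1. Of these, the floral gene PI rose (0.69 ± 0.17 on the log2 scale), a call that ended without any 1 of 4 libraries. SHP1 (-0.52) and SHP2 (0.89) were not called. AP3, STK and the pollen markers VGDH1 and PGA4 were not tested, and VGDH1 and PGA4 were at 0 in all 6 libraries. In whole seedlings, fewer cells of a type and less RNA per cell cannot be told apart.

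Promoters of 4 called genes are shown as examples of those that hold the motif known to be bound by REF6. Those of TAR2, which rose and holds it in 2 places, and of AST91, which fell, hold it too and are not printed. The call of TAR2 ended with any WT or ref6-1 library left out. CRK15, a receptor-like kinase gene, PRR9, a clock gene, and SWEET2, a sugar transporter gene, fell in ref6-1. GA2, whose enzyme makes the gibberellin precursor ent-kaurene, rose (0.28 ± 0.06 on the log2 scale), a call that ended without WT replicate 1 or ref6-1 replicate 1 (edgeR adjusted p = 0.0612 and 0.0534). Each line gives the 250 bases before the annotated gene start, read on the gene's strand from the TAIR10.1 genome of RefSeq, and capitals mark the motif on either strand. CRK15 lies at chr4:12160280-12160529 (minus strand), PRR9 at chr2:19232357-19232606 (plus), SWEET2 at chr3:4959705-4959954 (minus) and GA2 at chr1:29890117-29890366 (plus).
CRK15: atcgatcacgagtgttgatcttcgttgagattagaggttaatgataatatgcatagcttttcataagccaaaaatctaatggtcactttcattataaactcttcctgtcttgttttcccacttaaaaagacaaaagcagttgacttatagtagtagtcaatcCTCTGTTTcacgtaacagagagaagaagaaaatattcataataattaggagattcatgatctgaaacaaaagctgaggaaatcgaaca
PRR9: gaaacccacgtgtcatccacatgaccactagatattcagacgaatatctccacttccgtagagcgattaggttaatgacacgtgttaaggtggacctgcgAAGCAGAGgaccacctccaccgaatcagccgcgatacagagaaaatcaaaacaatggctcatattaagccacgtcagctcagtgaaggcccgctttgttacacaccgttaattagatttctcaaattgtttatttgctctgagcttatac
SWEET2: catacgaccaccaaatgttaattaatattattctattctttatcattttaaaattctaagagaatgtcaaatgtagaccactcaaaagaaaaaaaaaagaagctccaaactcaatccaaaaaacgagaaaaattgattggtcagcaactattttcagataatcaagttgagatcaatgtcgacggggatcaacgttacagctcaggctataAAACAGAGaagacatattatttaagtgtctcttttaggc
GA2: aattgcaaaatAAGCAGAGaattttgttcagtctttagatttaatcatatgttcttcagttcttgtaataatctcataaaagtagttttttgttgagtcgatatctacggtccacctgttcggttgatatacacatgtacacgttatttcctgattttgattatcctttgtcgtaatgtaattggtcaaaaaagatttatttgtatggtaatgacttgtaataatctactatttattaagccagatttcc
The motif searched was CTCTGTTT, CTCTGTTC, CTCTGCTT or CTCTGCTC on both strands, in windows from 250 bases before to 50 bases after the gene start. It was found in 7.55% of 21990 promoters of tested genes, in 10.5% of 514 promoters of genes that rose and in 7.94% of 1235 promoters of genes that fell. Among genes that changed at least 2-fold, it was found in 5 of 61 that rose and in 36 of 340 that fell (8.2% and 10.6%). The G-box CACGTG, a site of light and clock regulators, was in 8.57% of tested promoters, 8.37% of those that rose and 13.0% of those that fell, and PRR9 holds it in 2 places, in lower case above. The evening element AAAATATCT was in 2.96%, 3.5% and 3.24% in the same order. Among genes that changed at least 2-fold, the G-box was in 8 of 61 that rose and 41 of 340 that fell (13.1% and 12.1%). The evening element was in 4 and 7 of these (6.56% and 2.06%). These shares describe letters in a window and do not show binding.

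Far more genes fell than rose without REF6. Of 22076 genes tested, 1756 changed (7.95%), 514 upward (2.33%) and 1242 downward (5.63%), at an edgeR adjusted p under 0.05, here named a call. Of these, 61 (0.276%) and 341 (1.54%) changed at least 2-fold. The median log2 change was 0.34 among genes that rose and -0.58 among genes that fell, and 383 of the 514 and 621 of the 1242 changed less than 1.5-fold. Libraries of the 2 groups did not overlap at 30.2% of all genes tested. The log2 change lay below 0 at 10718 of the 22076. The 5 chromosomes were alike, with 2.02 to 2.67% of genes rising and 4.94 to 5.86% falling on each. Genes that fell had another gene that fell as the nearest tested gene on at least 1 side in 317 of 1235 cases (25.7%). Genes that rose had one that rose there in 47 of 514 (9.14%). A gene has a neighbour on each side, so these shares cannot be read beside the 5.63% and 2.33% of all genes. Falls numbered 637 without WT replicate 1 and 669 and 759 without ref6-1 replicate 2 and 1. The number that rose was 225 without WT replicate 1, and 249 and 265 without ref6-1 replicate 1 and 2. A gene near 0 in either group could pass the filter only through libraries where it is high. Counts of called list members below are therefore descriptions.

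**Figure D1:**
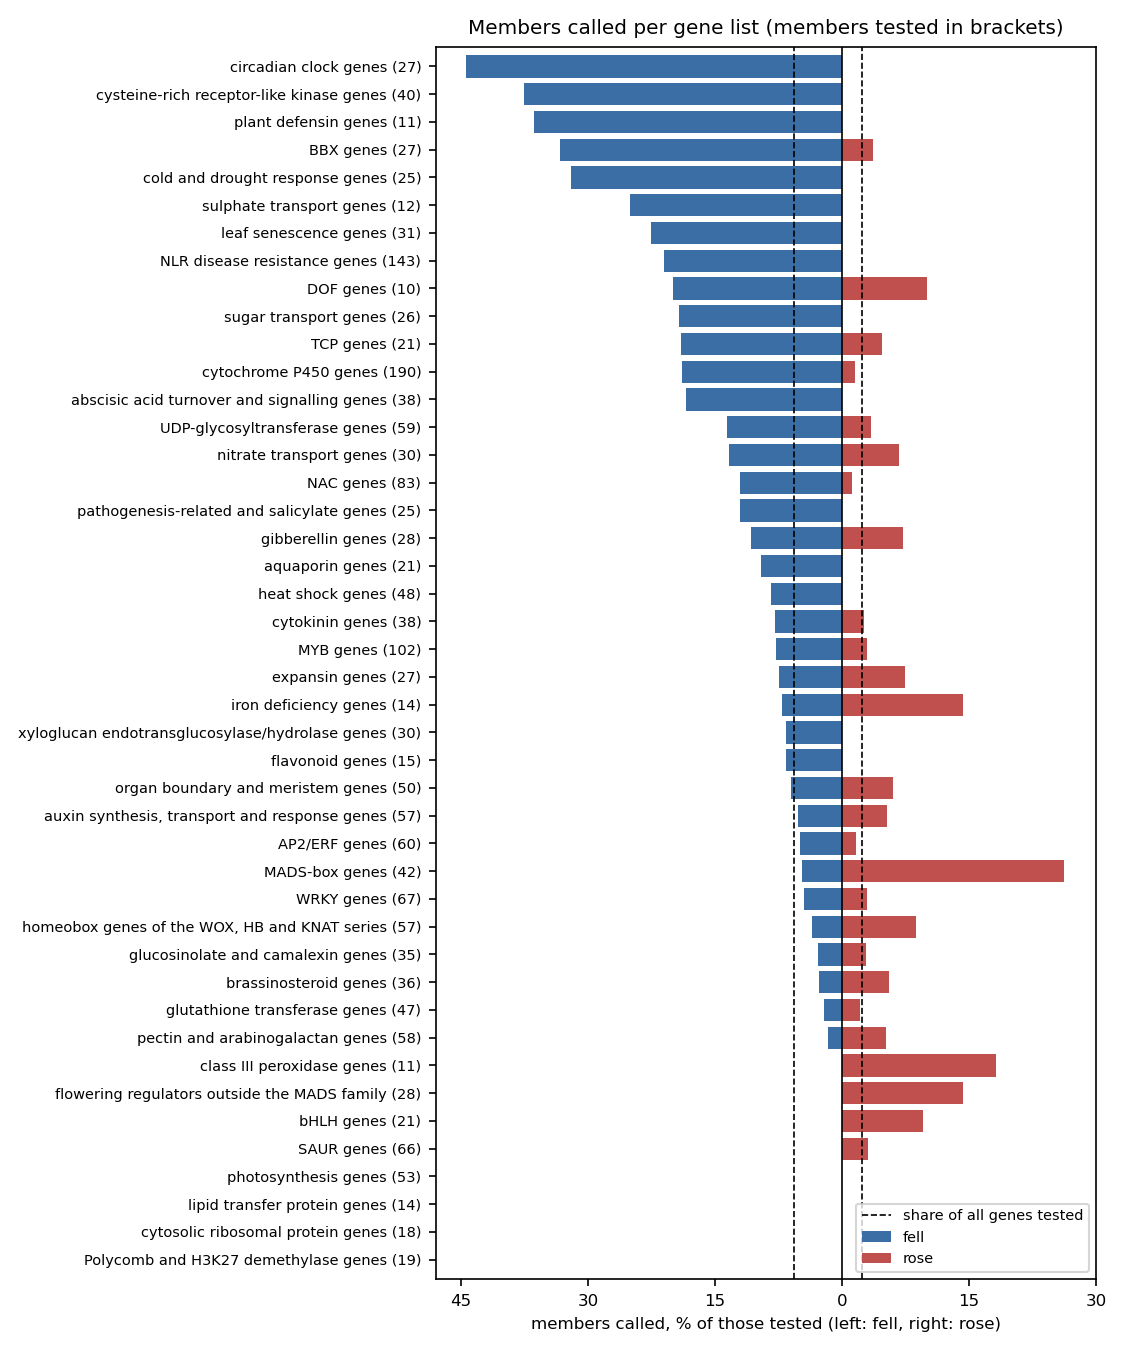
Bars give the share of tested members called in ref6-1 against WT for each gene list with at least 10 tested members, with falls to the left and rises to the right, and dashed lines mark the 5.63% and 2.33% of all genes. Clock genes (44.4% fell) and cysteine-rich receptor-like kinase genes (37.5% fell) reach farthest to the left, and MADS-box genes (26.2% rose) farthest to the right.

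Members of the MADS-box family, transcription factors of flowering time and floral organs, rose more often than genes at large. Of 42 tested members (99 in the table), 11 rose and 2 fell (26.2% and 4.76%, against 2.33% and 5.63% of all genes). The median log2 change was 0.10 against 0.00 for all genes. A floral member that is near 0 in WT could pass the filter only through libraries where it is high, so the count is a description and no support for a rise of the family. FLC (AT5G10140, chromosome 5, 3173382 to 3179448) stood at 3.49, 1.84 and 2.53 CPM in WT replicates 1, 2 and 3 and at 18.8, 19.5 and 18.18 CPM in ref6-1. The groups were far apart, and replicates within each were close. The log2 change was 2.83 ± 0.14 (SE, n = 3 per group, edgeR adjusted p = 8.06e-07). Its relative MAF5 went from 2.301, 2.75 and 2.44 CPM to 14.4, 19.0 and 15.1 CPM (2.69 ± 0.20). MAF4, the neighbouring gene of that cluster on chromosome 5, went from 4.18, 3.86 and 3.62 to 8.70, 6.86 and 6.49 CPM (0.92 ± 0.18). MAF1 (0.09 ± 0.04) and SVP (-0.10 ± 0.04), other repressors of the family, were not called.

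Floral organ identity genes of the SEPALLATA group were higher as well. SEP3 rose from 6.31, 8.26 and 9.32 CPM to 24.4, 26.0 and 23.7 CPM (1.64 ± 0.13), and SEP4 from 14.3, 11.1 and 12.8 to 27.8, 31.2 and 27.7 CPM (1.18 ± 0.12). The groups did not overlap at either gene. AGL46, a little-studied member, rose by 1.75 ± 0.39, a call that needed WT replicate 1 and ref6-1 replicate 2 (edgeR adjusted p = 0.0769 and 0.0714 with each removed). AGL18, another repressor of flowering, fell from 34.9, 33.0 and 35.1 to 22.6, 23.63 and 23.0 CPM (-0.57 ± 0.07, edgeR adjusted p = 0.000265). SEP1, AGL6, PI and AGL87 also rose, and AGL15 fell, but the call of each ended when any of several libraries was left out: all 6 in turn for SEP1, 5 for AGL6, 4 for PI, 3 for AGL87 and 5 for AGL15. The number of members that rose was 7 without WT replicate 1, 2 or 3.

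Promoters of flowering rose beside these repressors. FT (AT1G65480, chromosome 1, 24331373 to 24333999), which encodes the mobile flowering signal, stood at 3.75, 3.67 and 4.70 CPM in WT and at 9.50, 10.102 and 10.05 CPM in ref6-1, a log2 change of 1.29 ± 0.16 (edgeR adjusted p = 0.000346). SOC1 (listed as AGL20), a MADS-box integrator of flowering signals, went from 52.1, 53.4 and 57.4 to 65.1, 71.8 and 74.8 CPM (0.38 ± 0.06). Neither gene had overlapping groups. BFT, a relative of FT that represses flowering, rose by 1.87 ± 0.34 from 0.543 to 1.36 CPM in WT to 2.56 to 3.997 CPM in ref6-1. Of 28 tested flowering regulators outside the MADS family, FT, SPL4, SPL3 and CO rose (14.3%, against 2.33% of all genes) and 0 fell. SPL4, a target of the age pathway, rose from 4.35, 6.43 and 6.87 to 12.5, 10.9 and 13.2 CPM (1.06 ± 0.16). CO (0.56 ± 0.13), which activates FT in long days, and SPL3 (0.44 ± 0.10) dropped out when WT replicate 1 was removed (edgeR adjusted p = 0.0753 and 0.0786), which left 2 that rose, as did fitting only the groups compared. CO was also lost without ref6-1 replicate 2 (0.0804) and SPL3 without ref6-1 replicate 1 (0.0511).

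**Figure D2:**
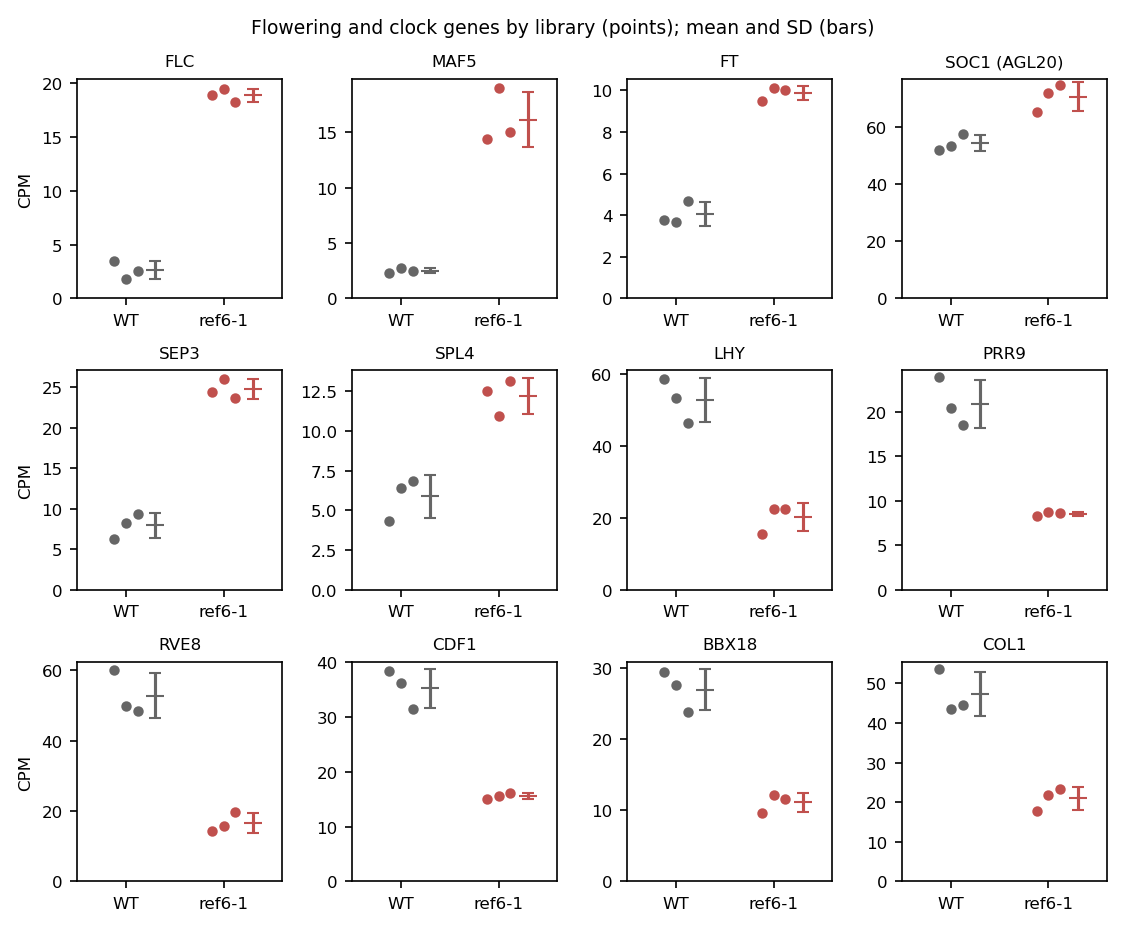
Points give the CPM of each library in WT (grey) and ref6-1 (red) for 12 genes of flowering and the clock, and bars give the mean and SD of 3 libraries. The first 6 genes, FLC to SPL4, are higher and the other 6, LHY to COL1, lower in every ref6-1 library than in every WT library.

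LHY, CCA1, RVE8 and PRR9 of the circadian clock fell, and TOC1, GI, ELF4 and LUX were not called. Of 27 tested clock genes 12 fell (44.4%, against 5.63% of all genes) and 0 rose by edgeR or DESeq2 (1 at an unadjusted p under 0.05). LHY (AT1G01060, chromosome 1, 33365 to 37871) stood at 58.4, 53.2 and 46.2 CPM in WT and at 15.6, 22.4 and 22.4 CPM in ref6-1 (-1.39 ± 0.22, edgeR adjusted p = 0.00483). Its partner CCA1, with which it represses evening genes, went from 52.5, 54.2 and 43.0 to 19.98, 29.6 and 28.8 CPM (-0.94 ± 0.14). RVE8, an activator of evening genes, went from 59.99, 49.8 and 48.5 to 14.4, 15.8 and 19.8 CPM (-1.66 ± 0.12, edgeR adjusted p = 1.14e-05). At each of these genes all ref6-1 libraries lay below all WT libraries. PRR9, whose promoter is shown above, is a repressor of CCA1 and LHY, and it went from 23.9, 20.4 and 18.5 to 8.26, 8.71 and 8.68 CPM (-1.29 ± 0.15). RVE1 (-1.01 ± 0.11), RVE2 (-0.59 ± 0.10) and LCL1 (-0.37 ± 0.05), relatives of CCA1, fell too.

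The day-phase repressors of CO in this list, CDF1 and CDF2, fell as well. CDF1 went from 38.3, 36.2 and 31.4 to 15.01, 15.7 and 16.1 CPM (-1.18 ± 0.09, edgeR adjusted p = 1.09e-05), and CDF2 fell by 0.93 ± 0.09 on the log2 scale. TOC1 differed by 0.02 ± 0.04, GI by -0.03 ± 0.03, ELF4 by 0.01 ± 0.05, and LUX (listed as PCL1) by 0.05 ± 0.03, and none of the 4 was called. With each library left out in turn, 9 to 11 members of the list fell. The hour of harvest is not given in the sources used here.

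B-box (BBX) zinc finger genes, regulators of light responses among which CO belongs, fell for 9 of 27 tested members, and 1, CO, rose. Those shares were 33.3% and 3.7%, against 5.63% and 2.33% of all genes. BBX18 went from 29.5, 27.7 and 23.9 CPM to 9.59, 12.2 and 11.6 CPM (-1.28 ± 0.14). BBX32, a repressor of light signalling, went from 13.0, 13.7 and 9.23 to 2.31, 2.78 and 4.48 CPM (-1.90 ± 0.34). COL1, a close relative of CO that lies next to it on chromosome 5, moved the other way from CO, from 53.6, 43.6 and 44.5 to 17.9, 21.7 and 23.3 CPM (-1.18 ± 0.12, edgeR adjusted p = 0.000159). The small microProtein gene BBX30 (-2.31 ± 0.31), STH (-0.82 ± 0.11) and BBX29 (-0.78 ± 0.15) fell too. The median of all 27 was 0.00. From 6 to 8 members fell with each library left out.

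Genes that make, break down and sense abscisic acid, the drought hormone, fell for 7 of 38 members (18.4%, against 5.63% of all genes). CYP707A1 (AT4G19230, chromosome 4, 10521259 to 10523961), which breaks the hormone down, stood at 43.5, 39.4 and 35.1 CPM in WT and 12.3, 14.7 and 17.5 CPM in ref6-1 (-1.41 ± 0.19, edgeR adjusted p = 0.0011). Its relative CYP707A2 fell from 43.1, 34.97 and 35.3 to 21.7, 21.7 and 18.6 CPM (-0.87 ± 0.09). CYP707A3 stood at 45.1, 76.2 and 58.2 CPM in WT and 18.21, 24.8 and 28.3 CPM in ref6-1 and was not called (-1.33 ± 0.37, edgeR adjusted p = 0.0629), although it was with DESeq2 (0.0163) or with only the groups compared (0.0365). The gene of an early step of synthesis, ABA1, fell by 0.26 ± 0.04 on the log2 scale, and that of a phosphatase that restrains the response, HAB1, by 0.59 ± 0.07. NCED3, the rate-limiting step under drought, differed by -1.35 ± 0.31 and lost its call when either of the first 2 replicates of WT or of ref6-1 was removed (edgeR adjusted p = 0.0807 to 0.102). Removing each of those 4 libraries left 4 members that fell.

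Cold and drought response genes fell for 8 of 25 members (32.0%, against 5.63% of all genes). Of the 25, 21 were below 0, against 10718 of all 22076 genes tested, and the median was -0.30. LTI78 (also known as RD29A), a protective protein gene, went from 121, 141 and 113 CPM to 58.2, 71.0 and 61.8 CPM (-0.97 ± 0.08, edgeR adjusted p = 7.02e-05). CBF2, a master regulator of cold acclimation, went from 13.7, 12.9 and 8.86 to 4.26, 3.43 and 5.48 CPM (-1.43 ± 0.27), and the CBF genes are near-identical copies whose reads the counting could share. LTI65 fell by 2.17 ± 0.44 on the log2 scale, or by 3.38 without ref6-1 replicate 1, and lost its call with only the groups compared. RD20 (-1.48 ± 0.32) and COR15A (-0.82 ± 0.20) were not called when either of the first 2 replicates of WT or of ref6-1 was removed. With WT replicate 1, 2 and 3 removed, 4, 3 and 5 fell, and with ref6-1 replicate 1 or 2 removed, 3.

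Leaf senescence genes fell for 7 of 31 members (22.6%, against 5.63% of all genes), and 23 lay below 0, against 10718 of all 22076. NYE2 (AT4G11910, chromosome 4, 7156150 to 7158047), a stay-green gene that starts the breakdown of chlorophyll, went from 26.9, 29.1 and 24.9 CPM in WT to 2.13, 3.61 and 5.66 CPM in ref6-1 (-2.83 ± 0.37, edgeR adjusted p = 0.00125). All ref6-1 libraries lay far below all WT libraries. Its relative NYE1 fell by 0.50 ± 0.08 on the log2 scale. PPDK, which helps to export nitrogen from ageing leaves, went from 184, 193 and 182 to 93.3, 116 and 132 CPM (-0.71 ± 0.11). SAG29, a sugar transporter gene of senescence, differed by -2.63 ± 0.49 and lost its call without ref6-1 replicate 1 (edgeR adjusted p = 0.0519). The regulators NAC092 (listed as NAC6, -0.22 ± 0.08) and NAC029 (listed as NAP, -0.41 ± 0.16) were not called. Removing WT replicate 2 or 3, or ref6-1 replicate 1 or 2, left 4 that fell.

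Cysteine-rich receptor-like kinases (CRKs), membrane proteins of defence and stress, fell more often than genes at large. Of 40 tested members 15 fell (37.5%, against 5.63% of all genes), and 0 rose by edgeR (1 by DESeq2, 3 at an unadjusted p under 0.05). Below 0 lay 35, against 10718 of all 22076 genes tested, and the median was -0.45. CRK15 (AT4G23230, chromosome 4, 12157827 to 12160279), shown above with its promoter, went from 17.9, 25.7 and 22.9 CPM to 2.40, 4.26 and 5.94 CPM (-2.40 ± 0.33, edgeR adjusted p = 0.00139). CRK12 went from 19.0, 27.6 and 21.8 to 5.86, 4.54 and 4.29 CPM (-2.21 ± 0.26), and CRK24 from 23.1, 26.4 and 17.5 to 3.46, 7.79 and 7.22 CPM (-1.86 ± 0.25). The groups did not overlap at any of the 3. CRK23 fell from 13.3, 9.36 and 4.97 to 0.444, 0.278 and 1.64 CPM (-3.53 ± 0.61), a value of -4.62 without ref6-1 replicate 3.

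These genes are neighbours. A group of 20 lies side by side on chromosome 4 between 12117491 and 12191704, and all 20 were lower in ref6-1, of which 14 were called. A run of 8, from CRK14 to CRK21 (12154091 to 12180936), was called throughout, but with each of the 6 libraries left out in turn only CRK15 and CRK19 kept their calls. CRK14, CRK16 and EMB1290 lost theirs in 4 of the 6 cases, and CRK18, CRK20 and CRK21 in 5. The only member called elsewhere was CRK26, which fell by 1.16 ± 0.23. CRK10 (-0.12 ± 0.15), CRK11 (-0.35 ± 0.14) and CRK13 (-0.27 ± 0.34) lay in the group without a call. Neighbouring copies are similar, and reads could be split or shared between them. Of the 40, the number that fell was 7, 8 and 7 without WT replicate 2, ref6-1 replicate 1 and ref6-1 replicate 2, and 6 with only the groups compared.

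**Figure D3:**
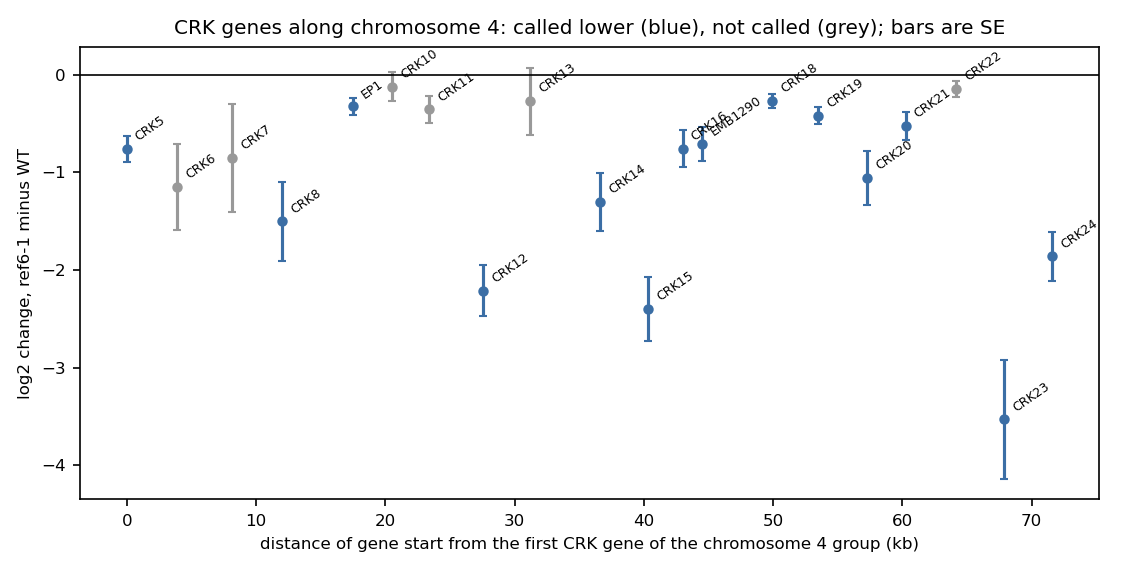
The log2 change of ref6-1 against WT (vertical) is drawn for 20 neighbouring receptor-like kinase genes by the distance of their start from the first of them in kb (horizontal), with bars for SE, blue for a call and grey for none. All points lie below 0, and CRK23, CRK15 and CRK12 lie lowest.

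Intracellular immune receptors of the NLR type, which recognise pathogen effectors, fell at 30 of 143 tested members (21.0%, against 5.63% of all genes). The other 113 were not called. By edgeR or DESeq2 0 rose (5 at an unadjusted p under 0.05), and 3 rose with upper quartile normalization and 2 without WT replicate 2. Below 0 lay 114, against 10718 of all 22076 genes tested, and the median was -0.15. AT5G46260 fell from 28.6, 25.3 and 28.1 to 5.595, 12.1 and 8.31 CPM (-1.66 ± 0.25, edgeR adjusted p = 0.00196). AT1G50180 fell from 31.5, 27.6 and 34.1 to 15.2, 16.7 and 15.9 CPM (-0.97 ± 0.09), and AT1G56540 by 1.58 ± 0.30 on the log2 scale. Of the 30, 8 fell at least 2-fold. Among them, and chosen after their values were seen, RLM1 was counted 7, 2 and 8 times in WT and 0 times in every ref6-1 library, and AT1G17615 16, 10 and 11 times in WT and 0, 0 and 2 times in ref6-1. Both lost their call in 4 of the 6 cases with a library left out (edgeR adjusted p up to 0.0691 and 0.105). Genes this near 0 in ref6-1 could pass the filter only through libraries of other groups. Fewer NLR genes fell with a library removed: 13, 15 and 15 without WT replicate 1, 2 and 3, 14 and 17 without ref6-1 replicate 1 and 2, and 17 with only the groups compared.

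All 25 pathogenesis-related and salicylate genes lay below 0 in ref6-1, with a median of -0.34, but only 3 were called. PR5, an antimicrobial protein gene, went from 47.8, 44.7 and 41.3 to 26.6, 32.3 and 35.4 CPM (-0.51 ± 0.09, edgeR adjusted p = 0.00389). PAD4 (-0.45 ± 0.11) and PR4 (-0.17 ± 0.05) were the others. When either of the first 2 replicates of WT or of ref6-1 was removed, only 1 fell, with 1 again when only the groups compared were fitted, and without ref6-1 replicate 3 there were 5. Among 11 tested defensin genes of 89 in the table, 4 fell (36.4%, against 5.63% of all genes). A member near 0 in ref6-1 could pass the filter only through libraries where it is high. The count is therefore a description and no support for a fall of the family. PDF1.2, a jasmonate-responsive antifungal peptide gene, went from 23.2, 12.02 and 13.2 to 0.533, 3.34 and 3.74 CPM (-2.67 ± 0.48). PDF1.2c fell from 18.8, 5.599 and 7.15 to 0.178, 0.371 and 1.46 CPM (-3.96 ± 0.64), or by 3.23 without WT replicate 1 and 5.21 without ref6-1 replicate 3. PDF1.2b (-2.19 ± 0.41) and PDF1.3 (-1.69 ± 0.40) fell too, although PDF1.3 was not called with WT replicate 1, ref6-1 replicate 1 or ref6-1 replicate 3 removed (edgeR adjusted p = 0.0849, 0.0566 and 0.0524), and only 2 defensin genes fell when only the groups compared were fitted. These 4 are near-identical copies, so how their reads divide is uncertain, and the other 7 were not called.

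Cytochrome P450 genes, enzymes of specialised metabolism and hormone turnover, fell for 36 of 190 tested members (18.9%), and 3 rose (1.58%). Of all genes 5.63% fell and 2.33% rose. CYP71B18 went from 42.4, 38.6 and 42.2 CPM to 2.93, 2.22 and 1.55 CPM (-4.19 ± 0.41, edgeR adjusted p = 0.000263). The WT libraries were all high and the ref6-1 libraries all low. CYP71B2 went from 52.2, 53.7 and 60.3 to 30.7, 27.8 and 27.9 CPM (-0.94 ± 0.09), and CYP71B3 from 54.8, 59.7 and 58.9 to 24.2, 35.1 and 36.6 CPM (-0.85 ± 0.16). CYP78A9, which acts in the growth of reproductive organs, fell by 1.01 ± 0.18 on the log2 scale, and CYP711A1 (MAX1), of strigolactone synthesis, by 0.42 ± 0.06. CYP71A25 was among the rises, from 17.3, 20.01 and 15.5 to 30.9, 35.8 and 32.0 CPM (0.90 ± 0.10). The number that fell was 18 without WT replicate 1, and 1 rose without WT replicate 1 or 2 or ref6-1 replicate 1.

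UDP-glycosyltransferases, which attach sugars to hormones and defence compounds, fell for 8 of 59 members, and 2 rose. Those shares were 13.6% and 3.39%, against 5.63% and 2.33% of all genes. UGT84A2, whose enzyme joins glucose to sinapate, went from 118, 120 and 109 to 89.2, 83.9 and 88.4 CPM (-0.41 ± 0.05). The number that fell was 2 and 5 without WT replicate 1 and 2 and 3 and 4 without ref6-1 replicate 1 and 2, or 5 with only the groups compared. Without ref6-1 replicate 3 it was 12, and 0 rose without ref6-1 replicate 2 or 3.

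**Figure D4:**
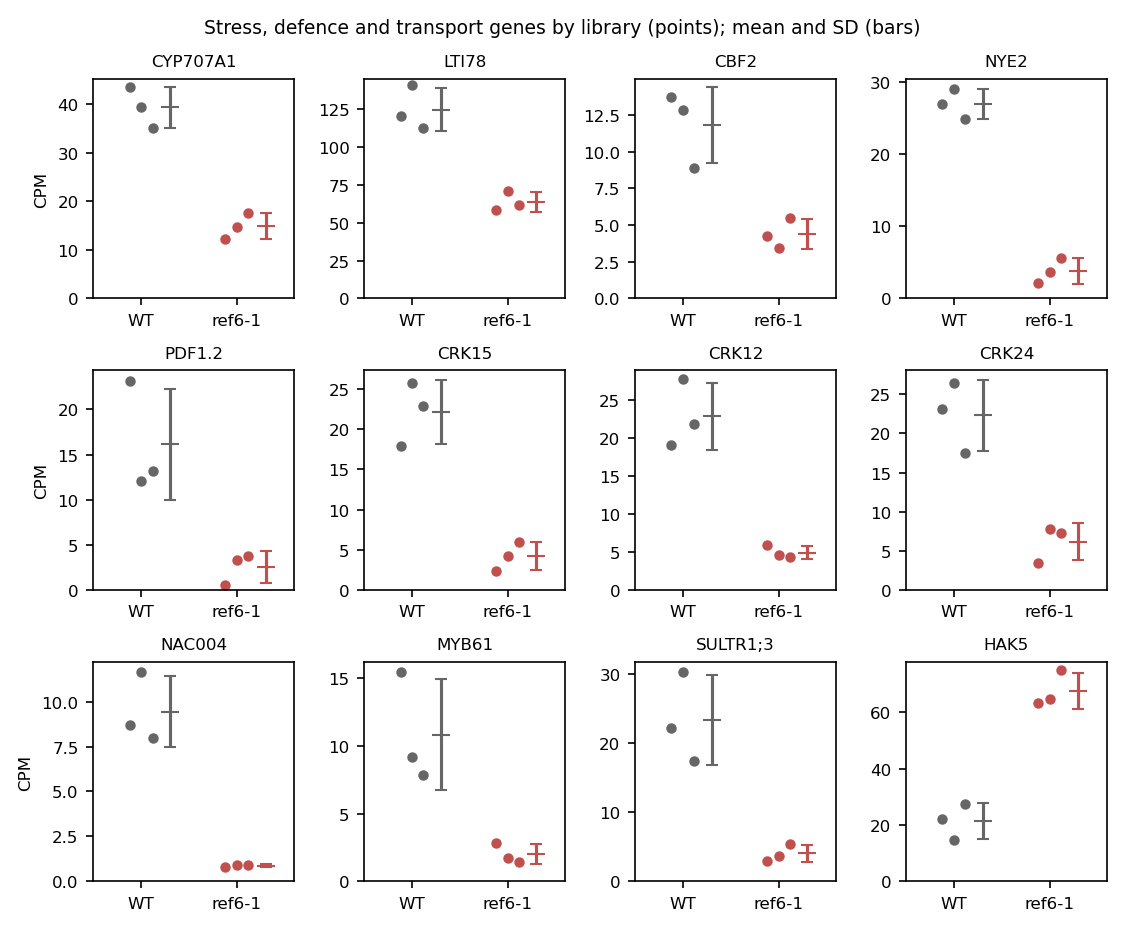
Points give the CPM of each library in WT (grey) and ref6-1 (red) for 12 genes of stress, defence and transport, and bars give the mean and SD of 3 libraries. HAK5 is higher and the other 11 genes are lower in every ref6-1 library than in every WT library.

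Transporter genes went in both directions. Among high-affinity phosphate transporter genes of the PHT1 series, 4 of 7 tested members fell (57.1%, against 5.63% of all genes). All 7 lay below 0, against 10718 of all 22076 genes tested, with a median of -1.46. PHT1;7 went from 15.8, 16.2 and 10.2 to 1.24, 1.95 and 4.75 CPM (-2.41 ± 0.47), or by -3.14 without ref6-1 replicate 3, and lost its call without ref6-1 replicate 2 (edgeR adjusted p = 0.0528). The number that fell was 1 without WT replicate 1, 2 or 3, without ref6-1 replicate 1 or with no filter on low counts, and 0 without ref6-1 replicate 2. These transporters act largely in roots, and the sum of 15 root markers was 775.0 to 806 CPM in WT and 723 to 732 CPM in ref6-1. The 15 include PHT1;1 of this list and PHO1, which loads phosphate into the xylem, so the sum is not independent of the list. Without both, the sum of the other 13 was 514.2 to 556.9 CPM in WT and 494.4 to 514.1 CPM in ref6-1. EXPA7 and PHO1 were the only ones called, WOX5 was lowest at 1.87 to 3.91 CPM and none was at 0. Their part in the result was not tested.

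Sulphate, sugar and nitrate transport each held clear single changes. SULTR1;3, a sulphate transporter gene of the phloem, went from 22.2, 30.4 and 17.5 to 3.02, 3.71 and 5.48 CPM (-2.52 ± 0.31, edgeR adjusted p = 0.000846), and 3 of 12 members of its list fell. SWEET2, which stores sugar in root vacuoles and whose promoter is shown above, went from 42.5, 32.3 and 35.6 to 14.0, 17.42 and 21.1 CPM (-1.07 ± 0.14). Of 26 sugar transport genes 5 fell (19.2%), or 3, 1 and 3 without WT replicate 2, ref6-1 replicate 1 and ref6-1 replicate 2 and 3 with only the groups compared. NPF6.4, listed as AtNPF6.4, a nitrate transporter gene, fell from 61.8, 59.8 and 43.1 to 16.9, 15.1 and 17.1 CPM (-1.75 ± 0.13, edgeR adjusted p = 1.47e-05). Its relative AtNPF1.2 rose from 81.6, 87.7 and 91.4 to 113, 112 and 105 CPM (0.34 ± 0.05). NRT2:1, the main high-affinity nitrate transporter gene of roots, stood at 0.852, 2.66 and 4.97 CPM in WT and 13.1, 16.8 and 6.85 CPM in ref6-1. Its log2 change of 2.12 ± 0.51 was not called when WT replicate 1 or 2 or ref6-1 replicate 1 or 2 was removed or in a fit of the compared groups alone (edgeR adjusted p from 0.0731 to 0.0996), and was 2.81 without WT replicate 3. In the list of 30 nitrate transport genes 4 fell (13.3%) and 2 rose (6.67%), against 5.63% and 2.33% of all genes. The number that fell was 1 without any of those 4 libraries and 2 with only the groups compared.

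HAK5 and NAS2 rose, and CHX2 and PAP23 fell. HAK5, the high-affinity potassium transporter gene induced by potassium shortage, went from 22.2, 14.8 and 27.4 to 63.1, 64.7 and 74.8 CPM (1.65 ± 0.20, edgeR adjusted p = 0.00128). NAS2, whose enzyme makes the metal chelator nicotianamine, went from 7.24, 7.16 and 6.78 to 11.2, 13.8 and 16.8 CPM (0.98 ± 0.18). CHX2, a cation exchanger gene, went from 48, 30 and 52 counts to 0, 0 and 5 counts (-4.57 ± 0.68, or -8.39 without ref6-1 replicate 3, where the group is at 0 and the fitted value is no bound). PAP23, a purple acid phosphatase gene, fell from 14.4, 10.4 and 12.5 to 0.533, 0.741 and 2.56 CPM (-3.27 ± 0.60, or -4.26 without ref6-1 replicate 3).

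NAC transcription factor genes, a plant family of stress and development, fell for 10 of 83 members and rose for 1. NAC004 went from 8.69, 11.7 and 7.96 CPM to 0.799, 0.927 and 0.913 CPM (-3.41 ± 0.40, edgeR adjusted p = 0.00032). NAC080 went from 25.1, 23.2 and 24.8 to 9.41, 8.62 and 6.85 CPM (-1.55 ± 0.14), and NAC027 from 12.5, 15.6 and 12.3 to 4.97, 4.45 and 4.75 CPM (-1.51 ± 0.15). With each library left out, 7 to 12 fell. The NAC gene CUC1, which sets the boundaries between organs, stood at 22, 13 and 17 counts in WT and 4, 4 and 2 counts in ref6-1, and its log2 change of -2.30 ± 0.47 lost its call without WT replicate 1 (edgeR adjusted p = 0.063).

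Of 102 MYB genes 8 fell (7.84%) and 3 rose (2.94%), close to the share of all genes. MYB61, which acts in wall formation and stomatal closure, went from 15.5, 9.18 and 7.87 to 2.84, 1.76 and 1.46 CPM (-2.42 ± 0.30, edgeR adjusted p = 0.000399). MYB76, a regulator of aliphatic glucosinolates, rose by 1.65 ± 0.39 and lost its call without WT replicate 1 or 3 or ref6-1 replicate 1 (0.0657 to 0.0765), each of which left 1 MYB gene that rose. The number that fell was 3 without WT replicate 1 and 5 and 4 without ref6-1 replicate 1 and 2. Of 57 homeobox genes 5 rose (8.77%) and 2 fell (3.51%), against 2.33% and 5.63% of all genes, with 3 that rose without ref6-1 replicate 2. ATHB54 rose from 1.02, 0.734 and 1.09 to 4.26, 3.43 and 4.38 CPM (2.07 ± 0.27, edgeR adjusted p = 0.000658). AtHB23 fell from 24.4, 20.2 and 25.1 to 12.2, 10.9 and 8.22 CPM (-1.15 ± 0.13), and BLH3, of the BEL1-like group, from 91.3, 87.4 and 88.2 to 54.4, 57.5 and 61.1 CPM (-0.63 ± 0.06).

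Some of the largest single changes lay outside these families. BPC7, of a group of factors that bind GA repeats and recruit Polycomb proteins, was counted 64, 49 and 60 times in WT and 1, 0 and 0 times in ref6-1. That is a ratio of 169 in favour of WT (95% exact interval 30.01 to 6731, counting error only). NUC-L2, a nucleolin gene that acts at ribosomal RNA genes, went from 13.5, 9.64 and 14.2 to 1.78, 1.205 and 1.83 CPM (-2.95 ± 0.20, edgeR adjusted p = 7.9e-06). MRD1, a gene of unknown role found through methionine overproduction, went from 50.6, 49.3 and 51.0 to 3.29, 1.85 and 2.01 CPM (-4.39 ± 0.40). It overlaps the gene HEI10, and whether the counting used strand is not stated, so their reads may not be separated. MIOX1, which oxidises inositol, went from 14.9, 14.1 and 15.6 to 1.33, 0.927 and 1.00 CPM (-3.76 ± 0.50), and SARA1A, a small GTPase gene of the secretory pathway, fell by 3.39 ± 0.34 on the log2 scale. AMY1, an amylase gene, differed by -3.30 ± 0.73 and lost its call without any 1 of the libraries other than WT replicate 3 (edgeR adjusted p = 0.0539 to 0.0845). Among rises, MES8, a methyl esterase gene, went from 2.301, 2.39 and 0.543 to 7.82, 6.21 and 7.12 CPM (2.01 ± 0.32). BGAL7, a galactosidase gene, rose by 1.68 ± 0.37 and lost its call without WT replicate 1 or ref6-1 replicate 1 or 2 or with only the groups compared (0.0512 to 0.0691).

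Lists of other hormones and of growth held few calls in number, but several shares lay above those of all genes (2.33% rose and 5.63% fell). Of 57 auxin genes 3 rose and 3 fell (5.26% each), and of 36 brassinosteroid genes 2 and 1 (5.56% and 2.78%). Of 28 gibberellin genes 2 rose and 3 fell (7.14% and 10.7%), of 38 cytokinin genes 1 and 3 (2.63% and 7.89%) and of 66 SAUR genes 2 and 0 (3.03% and 0.0%). Among 50 organ boundary and meristem genes 3 rose and 3 fell (6.0% each), and among 27 expansin genes 2 and 2 (7.41% each). In cell walls, 3 of 58 pectin and arabinogalactan genes rose (5.17%) and 1 fell (1.72%), and 2 of 30 xyloglucan enzyme genes fell (6.67%). With any of the 6 libraries left out these counts ran from 0 to 5. LOG5, which activates cytokinin, fell from 16.4, 15.2 and 16.1 to 5.06, 7.79 and 6.39 CPM (-1.31 ± 0.18, edgeR adjusted p = 0.000898). GASA6, a gibberellin-induced gene of elongation, rose from 27.7, 26.99 and 26.4 to 41.7, 37.9 and 37.9 CPM (0.54 ± 0.07). The brassinosteroid receptor gene BRI1 (0.07 ± 0.04) and the ethylene signalling gene EIN2 (-0.03 ± 0.03) were not called.

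Shares of the remaining lists stand beside the 2.33% of all genes that rose and the 5.63% that fell. Of 60 AP2/ERF genes 1 rose (1.67%) and 3 fell (5.0%), or 6 fell without ref6-1 replicate 3. Of 67 WRKY genes 2 rose (2.99%) and 3 fell (4.48%). WRKY falls numbered 0 with WT replicate 1 or 3, ref6-1 replicate 1 or ref6-1 replicate 2 removed. They numbered 1 with upper quartile normalization or no filter on low counts. WRKY13 rose from 2.98, 2.85 and 2.26 to 5.86, 6.12 and 5.30 CPM (1.09 ± 0.19). Of 48 heat shock genes 4 fell (8.33%), or 2 without ref6-1 replicate 2. Among the 4 were Hsp70-2 (-0.61 ± 0.09) and HSFA7A (-0.56 ± 0.09). HSF A4A and HSFA2 fell too and lost their calls without ref6-1 replicate 2. Their log2 changes there were -0.74 and -0.65 (edgeR adjusted p = 0.0541 and 0.0822). Of 21 TCP genes 4 fell (19.0%) and 1 rose (4.76%). TCP falls numbered 1 without WT replicate 1 or 2 and 2 without ref6-1 replicate 1 or 2 or with only the groups compared. Of 47 glutathione transferase genes 1 rose and 1 fell (2.13% each), and likewise of 35 glucosinolate and camalexin genes (2.86% each). Of 15 flavonoid genes 1 fell (6.67%), and of 21 aquaporin genes 2 (9.52%). Of 14 iron deficiency genes 2 rose and 1 fell, of 21 bHLH genes 2 rose, of 11 peroxidase genes 2 rose, of 10 DOF genes 1 rose and 2 fell, and of 6 ZAT genes 1 fell. With any of the 6 libraries left out, the counts of these 9 lists from glutathione transferases onward ran from 0 to 3. By edgeR and by DESeq2, 0 members were called among 53 photosynthesis genes (9 at an unadjusted p under 0.05), 18 ribosomal protein genes (2), 14 lipid transfer protein genes (3), 5 ammonium transport genes (1) and 19 Polycomb and H3K27 demethylase genes (2). Photosynthesis genes had a median of 0.07, with 7 of 53 below 0, against 10718 of all 22076 genes tested.

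Loss of REF6 could be read a second time, in plants that also lack BRM, from 6 libraries that share none with the comparison above. BRM transcripts were counted 43, 50 and 74 times in brm-1 and 60, 35 and 438 times in brm-1 ref6-1, so replicate 3 of the combined mutant stands apart from its label, and is named below as the third library. In brm-1 ref6-1 against brm-1, 247 genes rose (1.12%) and 721 fell (3.27%), or 233 and 669 without the third library. Of the 1242 genes that fell in ref6-1, 1105 (89.0%) were lower there too, against 47.9% of all genes tested, with 382 of them called and 3 called the other way, and the median was -0.30. Of the 514 that rose, 399 (77.6%) were higher, against 52.1% of all genes, and 60 called, with a median of 0.09. Without replicate 3 of brm-1 ref6-1 the shares were 87.8% and 78.2%, against 49.2% lower and 50.8% higher among all genes. Called falls numbered 199, 224, 232 and 237 without brm-1 ref6-1 replicate 2, brm-1 replicate 1, brm-1 replicate 3 and brm-1 ref6-1 replicate 1, and called rises 27, 33, 29 and 33.

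In the brm-1 background 37 of the 40 receptor-like kinase genes lay below 0 and 19 fell, with a median of -0.88. Without the third library 37 lay below 0 and 16 fell, with a median of -0.96. The number that fell was 8, 8 and 7 without brm-1 replicate 3, brm-1 ref6-1 replicate 1 and brm-1 ref6-1 replicate 2. CRK15 fell by 3.09 ± 0.37 on the log2 scale (3.63 ± 0.41 without the third library), CRK12 by 2.57 ± 0.26 (3.01 ± 0.23) and CRK24 by 2.48 ± 0.28 (2.57 ± 0.35). NYE2 stood at -3.01 ± 0.41 and at -4.06 ± 0.33 without that library, and NAC004 at -3.24 ± 0.37 and -4.23 ± 0.33. CYP71B18 stood at -3.56 ± 0.42 and at -5.01 ± 0.23 without it. MYB61 (-3.13 ± 0.35, and -3.34 ± 0.42 without it) and PRR9 (-1.01 ± 0.16, and -0.98 ± 0.19) fell too. BPC7 was counted 77, 71 and 72 times in brm-1 and 3, 0 and 12 times in brm-1 ref6-1, a log2 change of -3.77 ± 0.50, or -5.41 ± 0.52 without the third library. Each of these 9 genes was called with and without it.

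All 25 pathogenesis-related and salicylate genes lay below 0 in the brm-1 background as well, with a median of -0.74 and 4 that fell. Without the third library the median was -0.87 and 6 fell, and 2 fell without brm-1 replicate 1 or brm-1 ref6-1 replicate 2. For the clock list 6 fell, or 4 without the third library. LHY differed by -0.54 ± 0.22 (-0.34 ± 0.21 without it) and was not called in either case, and RVE8 fell by 0.75 ± 0.13 on the log2 scale (0.65 ± 0.14). The abscisic acid list had a median of 0.01, or -0.00 without the third library, and CYP707A1 differed by -0.33 ± 0.20 (-0.45 ± 0.22) without a call. Of 25 cold and drought genes 14 lay below 0 and 2 fell, with a median of -0.04. Of 190 P450 genes 11 fell and 5 rose, with a median of -0.03. P450 falls numbered 17 without the third library and 8 without brm-1 replicate 1. Of 11 defensin genes 0 were called. FT differed by 0.48 ± 0.14 and was not called (edgeR adjusted p = 0.0721), nor was it without that library (0.43 ± 0.16, edgeR adjusted p = 0.15). In brm-1, the starting level here, FT already stood near its raised level in ref6-1.

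**Figure D5:**
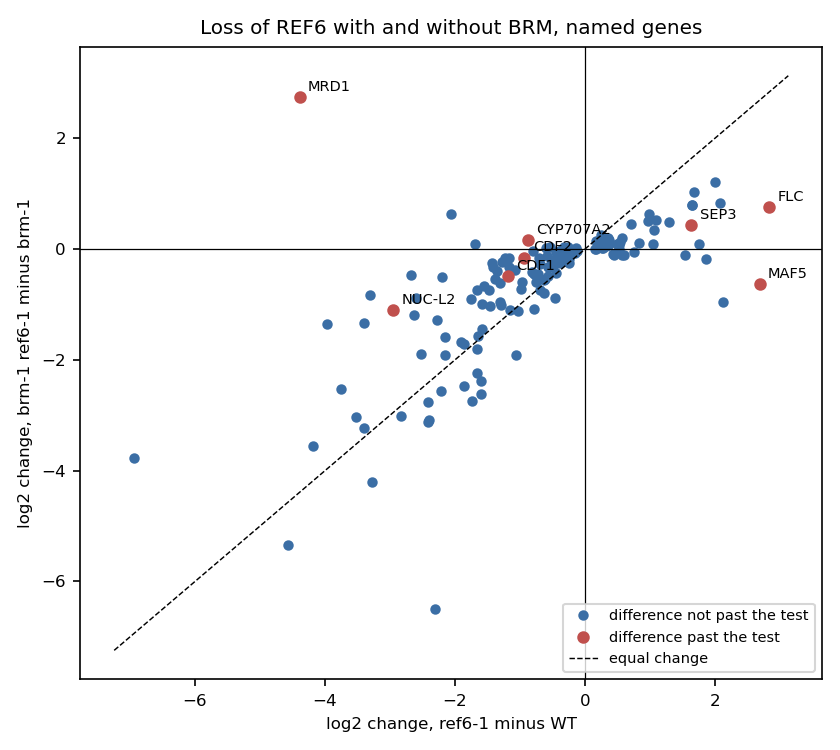
Each point is a named gene called in ref6-1 against WT, with that log2 change on the horizontal axis and the change of brm-1 ref6-1 against brm-1 on the vertical axis. Points near the dashed line changed alike in both backgrounds; the 8 red genes differed by the test of the difference, with FLC, MAF5 and SEP3 below the line and MRD1 far above it.

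A test of the difference between the backgrounds called 54 genes (0.245% of those tested). Of these, 38 had fallen and 9 had risen in ref6-1 against WT, which is 3.06% of the falls and 1.75% of the rises. The test uses the same WT and ref6-1 libraries as those calls, so this overlap is partly built in. FLC rose by 0.76 ± 0.10 without BRM against 2.83 ± 0.14 with it, and the difference was -2.07 ± 0.18 (edgeR adjusted p = 0.00043), or -2.06 ± 0.20 (0.00374) without the third library. The smaller rise starts from brm-1, where FLC stood near its raised level in ref6-1 and was not called different from it. The brm-1 libraries were not tested against WT. MAF5 stood at -0.64 ± 0.18, not called, against 2.69 ± 0.20, a difference of -3.33 ± 0.27, or -3.49 ± 0.28 without that library, where its fall in the brm-1 background was called at -0.80 ± 0.20 (edgeR adjusted p = 0.0494). MRD1 rose by 2.75 ± 0.47 against a fall of 4.39 ± 0.40, and its rise was 2.55 ± 0.52 without the third library and not called without brm-1 replicate 3 (edgeR adjusted p = 0.0519). In brm-1 MRD1 already stood near its low level in ref6-1, so the rise is from that level and is smaller than the fall. Neither brm-1 nor brm-1 ref6-1 was tested against WT. CYP707A2 stood at 0.16 ± 0.09 against -0.87 ± 0.09, a difference of 1.03 ± 0.13 (edgeR adjusted p = 0.00587), or 1.00 ± 0.14 (0.0158) without the third library. The number of such genes was 12 to 55 with each of the 12 libraries left out, lowest without ref6-1 replicate 2 and 15, 17, 21, 21 and 23 without brm-1 ref6-1 replicate 2, WT replicate 1, brm-1 replicate 2, brm-1 replicate 3 and WT replicate 2.

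Set directly against brm-1, ref6-1 was higher at 1650 genes (7.47%) and lower at 1900 (8.61%). FLC differed by -0.25 ± 0.11 and was not called, and FT by -0.00 ± 0.14. SEP3 was lower in ref6-1 (-0.92 ± 0.10), and AGL46 was higher (3.04 ± 0.45). NUC-L2 (-3.52 ± 0.20), CYP71B18 (-3.67 ± 0.42), NAC004 (-3.77 ± 0.39) and MIOX1 (-3.87 ± 0.50) were lower in ref6-1 than in brm-1, and MRD1, lower than WT in ref6-1, was not called (0.50 ± 0.61). This comparison shares its ref6-1 libraries with that against WT.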

How the data were processed

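Messenger RNA of 14-day-old Arabidopsis thaliana seedlings was sequenced as paired reads, and the authors deposited raw read counts per locus for 12 libraries. TopHat2 and the TAIR10 genome are named per the submitters' processing notes; neither the counting tool nor whether it used strand is stated, so antisense and overlapping genes cannot be told apart. Groups were taken from the labels, with 3 libraries per genotype. Of 29420 loci, 28932 matched the TAIR10.1 annotation of RefSeq, from which names, positions and promoters were read. Counts as deposited were tested with edgeR 4.0.16 in R 4.3.3 (filterByExpr, TMM scaling, robust quasi-likelihood F test, two-sided, Benjamini-Hochberg adjustment over the 22076 genes tested), with 1 mean per genotype over all 12 libraries so that the spread is shared. A gene was called at an adjusted p under 0.05. The SE of a log2 change is its size divided by the square root of F. CPM values use the TMM-scaled totals, and a log2 change is the fitted value. Depth was 10119148 to 11860892 counts per library, and intervals cover counting error only. Replicate pairs differed by more than sampling noise (chi-square per degree of freedom 1.63 to 4.20), so none was counted as 1.

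Genes and lists were chosen with earlier results of these data known. Genes described by rule were the 12 largest rises and 12 largest falls with a symbol, at least 2 CPM on average, a call and no overlap between groups, up to 4 such members of each list, and some fixed members; other members named (among them MAF4, SEP4, AGL18, CCA1, CYP71B2 and NAC027) were chosen after their values were seen. The fit was tested on simulated data. Alternatives were DESeq2 1.42.0, its size factors in edgeR, upper quartile scaling, other filters, only the groups compared, a stricter threshold, a replicate block and each library left out. Leaving out libraries in the brm-1 background, and the root marker sum without its phosphate genes, were added after seeing the data.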

Additional observations from a re-analysis of the deposited data

Results flagged for a closer look

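For 8 of the genes described, the change on loss of REF6 differed between plants with and without BRM by the test of the difference itself (edgeR quasi-likelihood test, n = 3 per genotype, adjusted over all genes). The value given is the log2 change of brm-1 ref6-1 against brm-1 minus that of ref6-1 against WT. Most genes described were chosen by their change in ref6-1 against WT, whose libraries this test uses too. Ranges of adjusted p are over the 12 libraries left out in turn, which were chosen as an alternative after seeing the data.

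The floral repressor FLC gave -2.07 ± 0.18 (edgeR adjusted p = 0.00043, range 6.42e-05 to 0.00374), and its relative MAF5 gave -3.33 ± 0.27 (0.00043, range 0.000251 to 0.00268). In brm-1, which was not tested against WT, FLC stood near its raised level in ref6-1 and was not called different from it. The floral organ gene SEP3 gave -1.21 ± 0.17 (0.0148, range 0.0126 to 0.0595), and its call ended without ref6-1 replicate 2. SEP3 was higher in brm-1 than in ref6-1. MRD1 gave 7.14 ± 0.62 (0.00117, range 1.37e-08 to 0.0111), with a fall in the BRM background and a rise in the brm-1 background. That rise starts from brm-1, where MRD1 stood near its low level in ref6-1 and was not called different from it. The rise was smaller than the fall, and neither brm-1 nor brm-1 ref6-1 was tested against WT. The nucleolin gene NUC-L2 gave 1.84 ± 0.26 (0.0159, range 0.0045 to 0.0609), and its call ended without ref6-1 replicate 2. The abscisic acid hydroxylase gene CYP707A2 gave 1.03 ± 0.13 (0.00587, range 0.00609 to 0.0249). The flowering repressors CDF1 and CDF2 gave 0.69 ± 0.12 (0.043, range 0.0223 to 0.115) and 0.78 ± 0.13 (0.032, range 0.027 to 0.0987). The call of CDF1 ended without any 1 library other than WT replicate 3, and that of CDF2 without any 1 of 8 libraries: WT replicate 1 or 2, ref6-1 replicate 1 or 2, brm-1 replicate 2 or 3, or brm-1 ref6-1 replicate 1 or 2. Replicate 3 of brm-1 ref6-1 held 438 BRM counts, against 60 and 35 in the others.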

How the results depend on the processing

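Of 159 genes described by rule, 151 were called, and none changed direction with a call under the alternatives run. With each of the 6 libraries left out in turn, 72 kept their call throughout. The number called in ref6-1 against WT was 862 to 1763 (225 to 484 rose, 637 to 1279 fell) with a library left out, against 1756 with all. At an adjusted p under 0.01 it was 622 (131 rose, 491 fell), and at 2-fold or more 402 (61 and 341). With DESeq2 it was 1561 (357 rose). For brm-1 ref6-1 against brm-1, leaving out a library gave 364 to 902 (70 to 233 rose, 294 to 669 fell), the stricter threshold 279 (53 and 226), and rises numbered 162 with DESeq2 and 134 with only the groups compared. The number that differed between backgrounds was 12 to 55 with a library left out. Upper quartile scaling gave 653 rises and 1135 falls, a larger share of rises than the 514 and 1242 reported.

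Replicate numbers did not pair the samples: deviations of same-numbered libraries correlated at 0.17, 0.06 and -0.19. With a replicate block, 2023 genes were called (620 rose, 1403 fell), and 1053 in the brm-1 background (281 and 772). With the block 12 senescence genes, 8 AP2/ERF genes and 7 WRKY genes fell. The block also called NAC6 (NAC092, edgeR adjusted p = 0.0335), NAP (NAC029, 0.0428) and CYP707A3 (0.00373), which were not called without it. With 3 libraries per group, small changes and genes of a few counts are not resolved.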
